A study of Mus musculus with 33 samples.

Results

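The response of liver to tunicamycin (TM) was set against the response of kidney, with the genotypes pooled. All 33 samples of the series entered, 15 livers and 18 kidneys. Genes were kept when their mean deposited value was at least 5 in each of the 6 tables, 1 table per genotype and tissue, which left 14695 of 50420 genes. The lowest table mean was 5 for the gene just inside this limit and 4.999 for the gene just outside it. Males of C57BL/6J (B6), of CAST/EiJ (CAST) and of the F1 of a B6 female and a CAST male were studied at 15 to 23 weeks of age. TM mice had been injected intraperitoneally with TM in DMSO at 1 mg/kg, and control mice with DMSO. The sample labels give the interval to collection as 24 h, whereas the study's methods give 8 h. TM livers numbered 7 (2 B6, 3 CAST, 2 F1) and control livers 8 (3 B6, 2 CAST, 3 F1). TM kidneys and control kidneys numbered 9 each, 3 per genotype.

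TM blocks the enzyme that starts N-linked glycosylation, so that glycoproteins misfold in the endoplasmic reticulum (ER). The unfolded protein response reads this through the ER sensors IRE1, PERK and ATF6. IRE1 splices the mRNA of the transcription factor XBP1, and XBP1 and ATF6 act on genes for chaperones, protein export and ER-associated degradation, whereas PERK slows translation and favors ATF4 and CHOP, which act on amino acid supply, redox and cell death genes. Hepatocytes secrete most plasma proteins and make bile acids, glucose and lipid, and the proximal tubule of the kidney reabsorbs solutes and also makes glucose and burns fatty acids.

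For each gene, the log2 fold change of TM over control was estimated in liver and in kidney as the mean of the 3 genotypes, and the tissue difference is the liver value minus the kidney value. A positive difference means a response higher in liver. Calls needed both an adjusted p under 0.05 in limma (Benjamini and Hochberg over all 14695 genes) and a size of at least 1.5-fold, or 0.585 on the log2 scale. Levels are given per sample as CPM, reads of the gene in a library scaled by its size, recovered from the deposited values, as the lowest, median and highest sample. The error after a log2 value is its standard error, with 7 and 8 samples behind each liver value and 9 and 9 behind each kidney value.

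Libraries held from 3355262 to 23094521 reads, with a median of 13143216. In 5 libraries, reads of olfactory and vomeronasal receptor genes came to more than 400 CPM (645 to 2890 CPM). These were B6 liver TM 3, F1 liver TM 2, B6 liver control 2, F1 liver control 2 and F1 kidney control 1. F1 liver control 2 stood apart further, with 61.5% of its reads in the single gene Gm10800 (18.3% in F1 liver TM 2) and a chi-square per gene of 1670 and 1700 against the other F1 control livers, where other replicate pairs had 13.8 to 330. Without it 1012 genes had a response higher in liver and 2546 higher in kidney, against 802 and 2118 with it. The summed level of 7 hepatocyte markers, Alb and Apoa1 among them, was 44900, 68600 and 79400 CPM in TM livers and 111000, 130000 and 152000 CPM in control livers, without overlap. In kidney the same sum was 133, 283 and 753 CPM with TM and 109, 375 and 941 CPM in controls. The summed level of 6 proximal tubule markers reached at most 24.4 CPM in TM livers and 26.9 CPM in control livers. In kidney it was 9060, 10600 and 12900 CPM with TM and 15000, 17900 and 26100 CPM in controls, again without overlap. Both tissues carried the markers of their labels. Medians of all 7 hepatocyte markers were lower in TM livers, without overlap in Alb (21600 to 47800 CPM against 56400 to 91200 CPM in control livers) and Ttr. Medians of all 6 proximal tubule markers were lower in TM kidneys, but 1 alone did not overlap, the abundant Kap (3360 to 8000 CPM against 9460 to 22600 CPM in control kidneys). Lrp2, the megalin receptor, lay between 1730 and 3720 CPM in TM kidneys against 1460 and 4840 CPM in control kidneys. In bulk tissue, fewer cells of a type and less RNA per cell cannot be told apart. Endothelial markers came to 170, 223 and 288 CPM in TM livers against 271, 345 and 382 CPM in control livers, and to 223, 261 and 288 CPM in TM kidneys against 252, 338 and 395 CPM in control kidneys. Neutrophil markers did not exceed 6.21 CPM in any library. The part of these marker shifts in the tissue differences was not tested.

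A response that differed between the tissues was found in 2920 of the 14695 genes (19.9%). It was higher in liver for 802 genes (5.46%) and higher in kidney for 2118 genes (14.4%), and it had the same sign in B6, CAST and F1 for 776 and 2062 of these. In liver, TM was followed by a rise of 2776 genes (18.9%) and a fall of 3014 genes (20.5%). In kidney 2221 genes rose (15.1%) and 1010 fell (6.87%). With edgeR 1687 rose and 1686 fell in kidney, and with DESeq2 1650 rose and 1860 fell. The excess of rises over falls in kidney thus depended on the method. Of the 6740 genes called in at least 1 tissue, 2610 (38.7%) had a difference between the tissues. The split of called differences depended on the scaling of the libraries. Genes higher in liver made up 27.5% of the calls, 39.4% with TMM scaling, 35.8% after centering the fold changes on their median, 41.0% with edgeR and 42.3% with DESeq2. Without the 5 receptor-rich libraries the share was 40.1% (1377 genes higher in liver), and with the log2 share of receptor reads as a model term (the receptor covariate) it was 54.0% (1650 higher in liver and 1406 higher in kidney). The median tissue difference over all genes was -0.09, against 0.01 with TMM scaling.

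**Figure D1:**
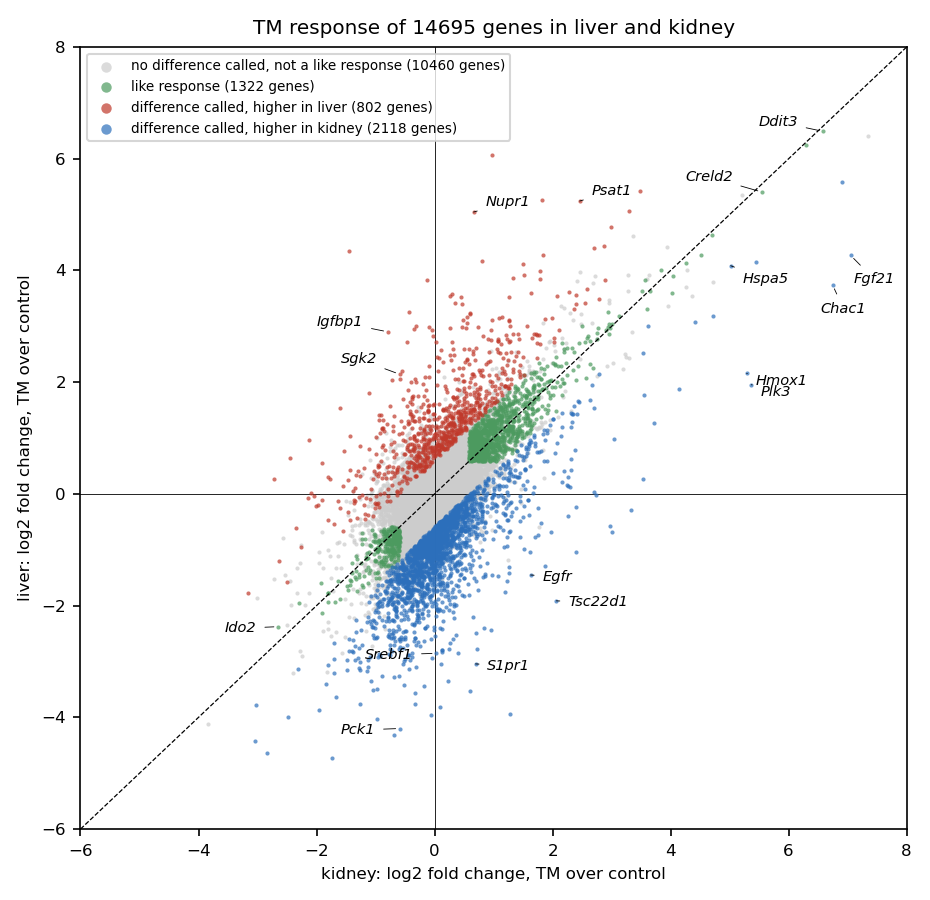
Log2 fold change of TM over control for each of 14695 genes, kidney on the horizontal axis and liver on the vertical axis. The 802 genes with a response higher in liver (red) lie above the diagonal and the 2118 with a response higher in kidney (blue) below it, while 1322 genes with a like response (green) lie along it.

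The genes higher in kidney were mostly genes that fell in liver. Of the 2118, 1337 (63.1%) fell in liver and were not called in kidney, 189 fell in both tissues, and 63 fell in liver and rose in kidney. A further 209 rose in kidney and were not called in liver, 71 rose in both, and 249 passed in neither tissue alone. Of the 802 genes higher in liver, 435 (54.2%) rose in liver and were not called in kidney, 189 rose in both tissues, and 27 rose in liver and fell in kidney. Another 84 fell in kidney alone, 6 fell in both, and 61 passed in neither tissue alone. A gene that passed in 1 tissue and not in the other is listed here only where the difference itself was called.

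**Figure D2:**
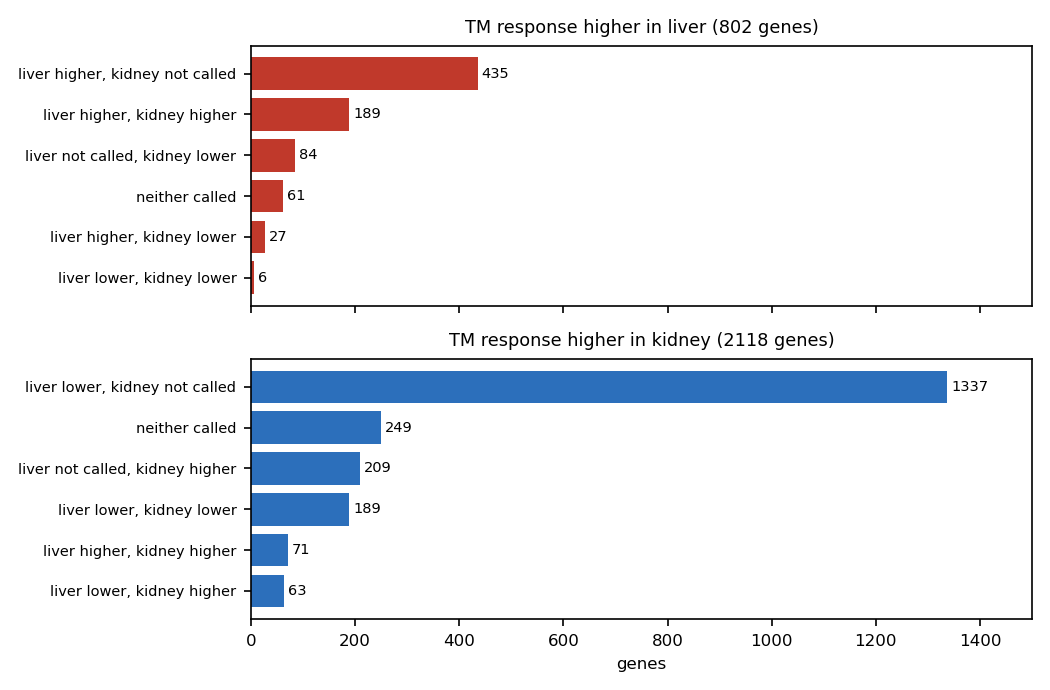
Number of genes called for a tissue difference, by the calls of the same genes within liver and within kidney, for responses higher in liver and higher in kidney. The longest bar is that of the 1337 genes that fell in liver without a call in kidney, and the next is that of the 435 genes that rose in liver without a call in kidney.

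The ER folding and secretion machinery rose in both tissues, and part of it by a like amount. A like response means a call of the same sign in both tissues and a 95% interval of the difference within 1 log2 unit of 0. Of all genes tested, 1322 (9%) had one, 1040 of them higher with TM (7.08%). Only genes called in both tissues can have one, and these 1040 lie among 1537 genes that rose in both. A like rise was thus common among all genes that rose in both tissues. Of 33 ER chaperones and disulfide isomerases, 28 rose in liver and 27 in kidney, 19 (57.6%) had a like response, and the median log2 fold changes were 1.83 in liver and 1.68 in kidney. The medians over all genes tested were -0.01 in liver and 0.05 in kidney, and 18.9% of all genes rose in liver and 15.1% in kidney. Of 29 genes of translocation into the ER, 25 rose in liver and 22 in kidney, with 16 like responses and medians of 1.19 and 1.2. Of 40 genes of ER to Golgi transport, 31 rose in liver and 31 in kidney, with 24 like responses. Of 27 genes of ER-associated degradation, 17 rose in liver and 18 in kidney, with 14 like responses (51.9%). Of 39 genes of N-glycan assembly, 21 rose in liver and 20 in kidney, with 15 like responses (38.5%). The median tissue differences of these 5 lists changed sign between alternative settings, and no direction is given for them.

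Promoters are shown here for 4 of these genes because each holds the ER stress response element (ERSE), the site known to bind the factors NF-Y and ATF6. The letters searched on both strands were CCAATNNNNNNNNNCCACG, in 300-base promoters running from 250 bases before to 50 bases after the transcription start (RefSeq, GRCm38.p6). Capitals mark the match, which reads on the opposite strand in Creld2 and Derl3, and each run of 90 bases is given 5′ to 3′ in the direction of its gene.
Hspa5, chr2:34771989-34772078, plus strand: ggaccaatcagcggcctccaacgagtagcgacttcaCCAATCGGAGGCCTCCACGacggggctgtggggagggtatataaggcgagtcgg
Creld2, chr15:88819484-88819573, plus strand: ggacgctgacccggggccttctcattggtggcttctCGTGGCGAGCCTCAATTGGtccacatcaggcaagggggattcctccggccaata
Derl3, chr10:75893206-75893295, plus strand: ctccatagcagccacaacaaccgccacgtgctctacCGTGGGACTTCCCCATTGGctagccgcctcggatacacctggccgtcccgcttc
Syvn1, chr19:6046496-6046585, plus strand: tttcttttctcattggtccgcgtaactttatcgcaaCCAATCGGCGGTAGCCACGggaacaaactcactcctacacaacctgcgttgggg
The match began 65 bases before the start in Hspa5, 126 in Creld2, 156 in Derl3 and 44 in Syvn1. It was found in 39 of all 32851 promoters of the table (0.119%) and in 21 of 12538 promoters of genes tested (0.167%). The chaperone list had it in 7 of 34 promoters (20.6%), and 27 of its 33 genes had a promoter in the table. A match was found in 2 of 22 promoters of the degradation list (19 of 27 genes had a promoter), 1 of 35 of the N-glycan list, 0 of 21 of the translocation list (20 of 29 genes) and 0 of 42 of the list of transport from ER to Golgi. The chaperone genes with a match were Calr, Canx, Creld2, Dnajc3, Hsp90b1, Hspa5 and Pdia6. Matches overlapped those of the UPRE (TGACGTGG) in 2 promoters and those of no other motif searched here. A match is a description of the letters and not evidence of binding.

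The level of Creld2, an ER chaperone and secreted stress marker, was 3030, 4690 and 5110 CPM in TM livers and 41.6, 77.1 and 201 CPM in control livers. In kidney it was 533, 702 and 801 CPM with TM and 11.2, 15.1 and 23.5 CPM in controls. The groups did not overlap in either tissue. Its rise was 5.4 ± 0.22 on the log2 scale in liver and 5.55 ± 0.19 in kidney, which differed by -0.14 (95% interval -0.74 to 0.45, limma adjusted p = 0.787).
Derl3, a channel component of ER-associated degradation, was at 459, 851 and 994 CPM in TM livers against 5.37, 8.34 and 23.9 CPM in control livers. Its kidney levels were 113, 168 and 221 CPM with TM against 0.947, 1.88 and 4.95 CPM in controls. Its difference of -0.06 ± 0.36 was the mean of -1.1 in B6, -0.06 in CAST and 0.98 in F1, so that the likeness held for the mean of the genotypes and less closely within each.
Ddit3, the gene of CHOP, was at 1330, 1760 and 2700 CPM in TM livers against 11.6, 14.2 and 65.1 CPM in control livers, and at 635, 747 and 882 CPM in TM kidneys against 5.83, 7.32 and 18.2 CPM in control kidneys. Its rise of 6.49 ± 0.25 in liver and 6.59 ± 0.22 in kidney was a like response. Syvn1, the ubiquitin ligase of ER-associated degradation, Manf, a secreted ER-resident protective factor, and Dnajb9, a co-chaperone of BiP that restrains IRE1, also had like responses, with differences of 0.17 ± 0.30, -0.13 ± 0.28 and -0.03 ± 0.20.

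Some members of the same machinery differed. Xbp1, the target of IRE1 splicing, was at 335, 556 and 639 CPM in TM livers and 306, 422 and 487 CPM in control livers, which overlap, and at 227, 265 and 317 CPM in TM kidneys and 71.4, 108 and 121 CPM in control kidneys, which do not. Total Xbp1 had 0.24 ± 0.14 in liver and rose in kidney (1.56 ± 0.13), a difference of -1.33 ± 0.19 (limma adjusted p = 6.85e-06). These values count all Xbp1 reads and do not separate spliced from unspliced mRNA. Sdf2l1, a partner of BiP, rose by 4.15 ± 0.23 in liver and 5.44 ± 0.20 in kidney, and this difference (-1.29 ± 0.30, limma adjusted p = 0.00231) was not called with the receptor covariate (-0.86).
Hspa5, the gene of the chaperone BiP, was at 15800, 21200 and 25800 CPM in TM livers against 632, 1140 and 2520 CPM in control livers, and at 5640, 7330 and 10100 CPM in TM kidneys against 146, 226 and 449 CPM in control kidneys. It rose in both tissues, by 4.08 ± 0.23 and 5.02 ± 0.21, and the difference of -0.93 ± 0.32 passed narrowly (limma adjusted p = 0.0322). The call was lost in 15 of 49 alternatives, where the difference ran from -1.03 to -0.44, and 11 of these leave out a single library: B6 liver TM 1, F1 liver TM 2, B6 liver control 1 and 3, CAST liver control 3, F1 liver control 1, B6 kidney TM 1, B6 kidney control 2 and 3, or CAST kidney control 1 and 2. Hyou1, another ER chaperone, differed by -0.59 ± 0.28 and was not called (limma adjusted p = 0.131), but was called with the number within each table as a replicate block (-0.63, limma adjusted p = 0.0352). In the opposite direction, Wfs1, an ER membrane protein of calcium handling, was at 62.0, 86.7 and 117 CPM in TM livers against 7.76, 9.95 and 15.1 CPM in control livers, and at 34.3, 39.6 and 59.9 CPM in TM kidneys against 9.64, 11.5 and 13.7 CPM in control kidneys. Its rise was larger in liver by 1.16 ± 0.21 (limma adjusted p = 0.000126). Gfpt1, which controls entry into hexosamine synthesis, also rose more in liver, by 1.00 ± 0.21.

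Targets of the PERK, ATF4 and CHOP branch rose in both tissues, and 15 of the 26 tested (57.7%, of 29 listed) had a response higher in kidney, against 14.4% of all genes. Of the list, 20 genes (76.9%) rose in liver and 25 (96.2%) in kidney, against 18.9% and 15.1% of all genes. The medians were 2.53 and 3.00, and the median difference was -0.95. Over the alternatives the count higher in kidney ran from 12 to 17 and the median difference from -1.06 to -0.85. Atf4 itself, the transcription factor made when PERK is active, rose by 2.52 ± 0.14 in liver and 3.52 ± 0.12 in kidney, and Ppp1r15a, the phosphatase subunit that ends PERK signaling, by 3.08 ± 0.18 and 4.42 ± 0.16. Both differences were called, at -1 ± 0.18 and -1.34 ± 0.23. Asns, the asparagine synthetase, rose by 3.80 ± 0.30 and 4.72 ± 0.27, and its difference of -0.92 ± 0.41 was not called (limma adjusted p = 0.11), nor was that of Atf3, a stress-induced transcription factor (-0.94 ± 0.48, adjusted p = 0.166).

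**Figure D3:**
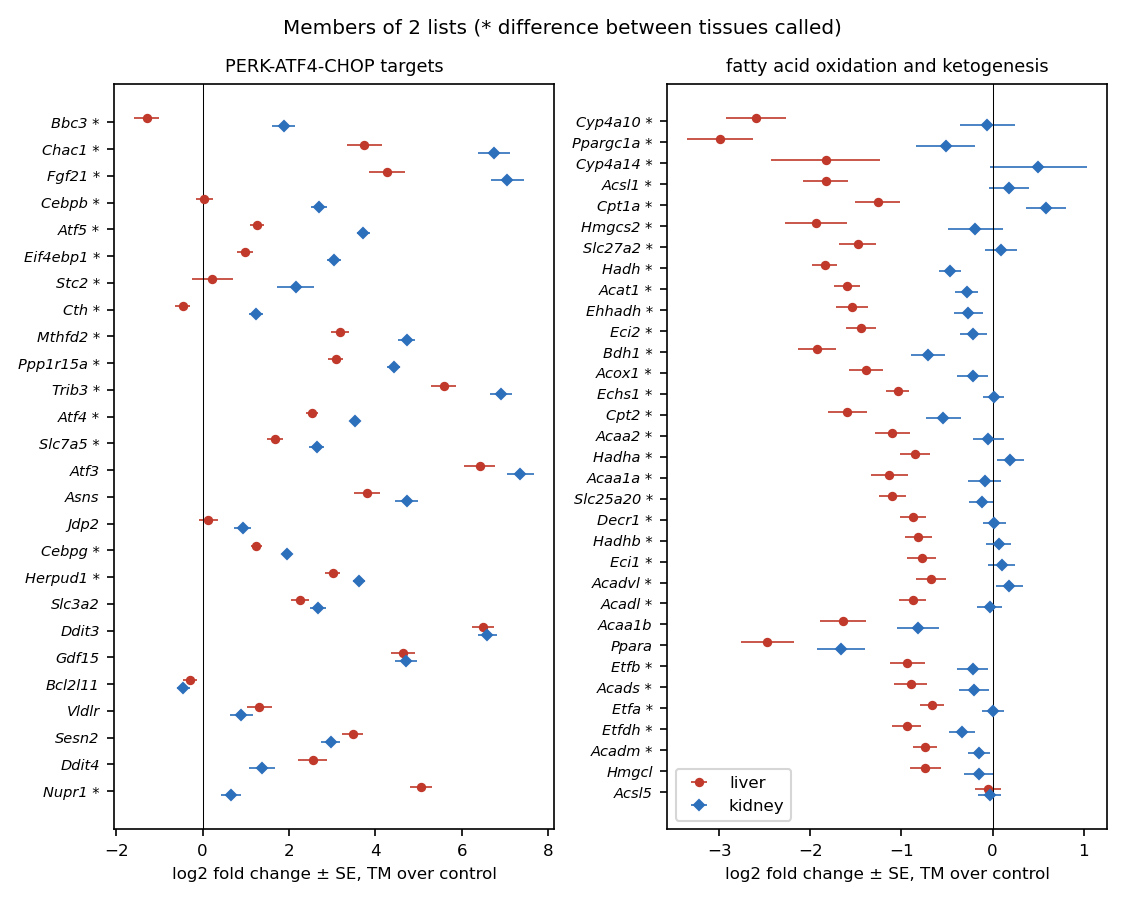
Log2 fold change of TM over control with its standard error for every tested member of the PERK, ATF4 and CHOP list (26 genes) and of the fatty acid oxidation list (33 genes), liver in red and kidney in blue, with an asterisk where the tissue difference was called. In the first list 15 members were higher in kidney and Nupr1 alone was higher in liver. In the second, 29 members were higher in kidney and 32 of the liver values were called as falls.

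Promoters of 4 members of this list are shown because they hold the composite C/EBP-ATF element, a site known to bind ATF4 with a C/EBP partner. The letters TGATGNAA were searched on both strands of the same 300-base promoters. Capitals mark the match, on the opposite strand in Chac1, Fgf21 and Nupr1, and each run is read 5′ to 3′ in the direction of its gene.
Chac1, chr2:119351008-119351097, plus strand: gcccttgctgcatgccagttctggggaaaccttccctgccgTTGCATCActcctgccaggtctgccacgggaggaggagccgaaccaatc
Fgf21, chr7:45615581-45615670, minus strand: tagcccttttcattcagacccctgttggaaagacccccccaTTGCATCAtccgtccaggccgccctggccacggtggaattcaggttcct
Asns, chr6:7693184-7693273, minus strand: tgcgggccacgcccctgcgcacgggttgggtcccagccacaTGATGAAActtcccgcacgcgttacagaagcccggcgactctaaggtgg
Nupr1, chr7:126625532-126625621, minus strand: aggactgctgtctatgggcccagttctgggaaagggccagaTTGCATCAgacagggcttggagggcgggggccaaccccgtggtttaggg
The match began 193 bases before the start in Chac1, 139 in Fgf21, 23 in Asns and 110 in Nupr1. The letters were found in 1304 of 32851 promoters (3.97%) and in 275 of 12538 promoters of genes tested (2.19%). This list had them in 9 of 31 promoters (29.0%), and 23 of its 26 genes had a promoter. The genes with a match were Asns, Atf3, Chac1, Fgf21, Herpud1, Jdp2, Nupr1, Trib3 and Vldlr, and no promoter of the list held the ERSE. In the chaperone list 1 of 34 promoters (2.94%) held the C/EBP-ATF letters. Matches overlapped those of the SRE (TCACNCCAC) in 1 promoter. The same 8 letters occur in Chac1 and Fgf21, whose responses were higher in kidney, and in Nupr1, whose response was higher in liver.

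Chac1, an enzyme that breaks down glutathione, was at 39.6, 60.9 and 144 CPM in TM livers against 0.736, 6.37 and 11.3 CPM in control livers. In kidney it was at 72.5, 103 and 147 CPM with TM against 0.25, 0.961 and 3.72 CPM in controls. It rose in both tissues without overlap, by 3.74 ± 0.41 (liver) and 6.75 ± 0.36 (kidney), and these values differed by -3.01 ± 0.55 (limma adjusted p = 0.000143).
Fgf21, a hormone of the fasting and stress response, was at 12, 58.1 and 219 CPM in TM livers against 0.25, 2.73 and 11.5 CPM in control livers, and at 12.9, 23.3 and 78.3 CPM in TM kidneys against 0, 0.239 and 0.991 CPM in control kidneys. The TM livers overlapped with the TM kidneys, and the difference of -2.78 ± 0.56 came with low kidney controls. It was -1.87 with a pseudocount of 5 and -3.68 with DESeq2.
Cebpb, a transcription factor that pairs with ATF4, was at 53.5, 75.8 and 122 CPM in TM livers against 53.2, 72.1 and 126 CPM in control livers, and at 16.1, 25.8 and 33.6 CPM in TM kidneys against 2.15, 4.71 and 5.64 CPM in control kidneys. It had 0.04 ± 0.20 in liver and rose in kidney (2.69 ± 0.18), with a difference of -2.66 ± 0.27 (limma adjusted p = 2.67e-08).

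Nupr1 (ENSMUSG00000030717), a small chromatin-associated regulator induced by stress, went against its list. It was at 23.2, 87.8 and 268 CPM in TM livers against 1.40, 2.26 and 8.98 CPM in control livers, without overlap. In kidney it was at 12.7, 17.4 and 35.5 CPM with TM against 8.77, 13.7 and 25.5 CPM in controls, which overlap. The log2 fold changes were 5.05 ± 0.25 and 0.66 ± 0.23, and the difference of 4.38 ± 0.34 (limma adjusted p = 3.27e-10) was the largest among the ranked genes higher in liver, at 5.12 in B6, 3.61 in CAST and 4.42 in F1.

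Genes of amino acid supply had differences in both directions. Of 17 genes tested (19 listed) of serine and one-carbon synthesis, 3 (17.6%) had a response higher in liver and 8 (47.1%) higher in kidney (2 to 4 and 7 to 11 over the alternatives), against 5.46% and 14.4% of all genes. Of 21 amino acid transporters tested (27 listed), 1 (4.76%) had a response higher in liver and 6 (28.6%) higher in kidney (0 to 5 and 4 to 9 over the alternatives), with a median difference of -0.47. Psat1, which makes phosphoserine, was at 47.1, 89.2 and 110 CPM in TM livers against 0.981, 1.62 and 7.19 CPM in control livers, and at 116, 163 and 230 CPM in TM kidneys against 13.5, 33 and 58.1 CPM in control kidneys. It rose in both and more in liver, by 2.78 ± 0.39 (limma adjusted p = 4.6e-06), from a control level that was low in liver. Gpt2, the mitochondrial alanine transaminase, was at 433, 632 and 1080 CPM in TM livers against 510, 634 and 706 CPM in control livers, and at 106, 168 and 211 CPM in TM kidneys against 25.5, 40.6 and 44.0 CPM in control kidneys. It rose in kidney alone, with a difference of -2.08 ± 0.21 (limma adjusted p = 2.59e-08). Mthfd2, the mitochondrial folate enzyme, rose in both and more in kidney (-1.54 ± 0.28).

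Of 23 cytosolic aminoacyl-tRNA synthetases, which load tRNAs with amino acids, 20 (87%) rose in liver and 22 (95.7%) in kidney. Of all genes, 18.9% rose in liver and 15.1% in kidney. A response higher in kidney was called for 10 (43.5%, 8 to 10 over the alternatives), against 14.4% of all genes. A like response was found in 12 (52.2%), against 9% of all genes. The median difference of -0.30 ran from -0.39 to 0.06 over the alternatives, and no direction is given for it. Cars, the cysteine enzyme, was at 17.7, 28.7 and 44.3 CPM in TM livers against 21.5, 26.5 and 32.9 CPM in control livers, and at 57.8, 64.7 and 68.6 CPM in TM kidneys against 11.9, 14.1 and 15.8 CPM in control kidneys. It had 0.13 ± 0.14 in liver and rose by 2.29 ± 0.12 in kidney, and the difference was -2.16 ± 0.19 (limma adjusted p = 2.25e-09). Mars, the methionine enzyme, had -0.41 ± 0.15 in liver and rose by 1.51 ± 0.13 in kidney. Aars, the alanine enzyme, rose in both tissues, by 0.78 ± 0.17 and 2.38 ± 0.15.

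Immediate early genes, which respond to growth and stress signals without new protein synthesis, rose in more members in kidney. Of 26 tested (32 listed), 12 (46.2%) rose in liver and 22 (84.6%) in kidney, against 18.9% and 15.1% of all genes. A response higher in liver was called for 4 (15.4%) and higher in kidney for 9 (34.6%), against 5.46% and 14.4% of all genes. Both shares were thus above those of all genes. The counts ran from 1 to 5 and from 6 to 11 over the alternatives. Myc, a growth-promoting transcription factor, was at 17.3, 27.5 and 51.4 CPM in TM livers against 3.63, 7.81 and 25.5 CPM in control livers, and at 43.5, 54.1 and 84.9 CPM in TM kidneys against 1.99, 3.57 and 7.18 CPM in control kidneys. It rose in both, by 1.88 ± 0.29 and 4.15 ± 0.26, a difference of -2.26 ± 0.39 (limma adjusted p = 8.04e-05). Plk3, a stress-responsive kinase, was at 124, 163 and 196 CPM in TM livers against 26.6, 37.1 and 95.8 CPM in control livers, and at 135, 211 and 355 CPM in TM kidneys against 3.88, 4.62 and 15.2 CPM in control kidneys. TM levels of Plk3 were alike in range, while control levels were lower in kidney, and the difference was -3.42 ± 0.31 (limma adjusted p = 4.4e-09). Hmox1, which degrades heme, was at 32.6, 52.0 and 257 CPM in TM livers against 7.31, 13 and 26.4 CPM in control livers, and at 219, 394 and 542 CPM in TM kidneys against 5.20, 10.6 and 19.3 CPM in control kidneys. It rose in both tissues without overlap and more in kidney, by 2.16 ± 0.25 in liver and 5.29 ± 0.23 in kidney.

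**Figure D4:**
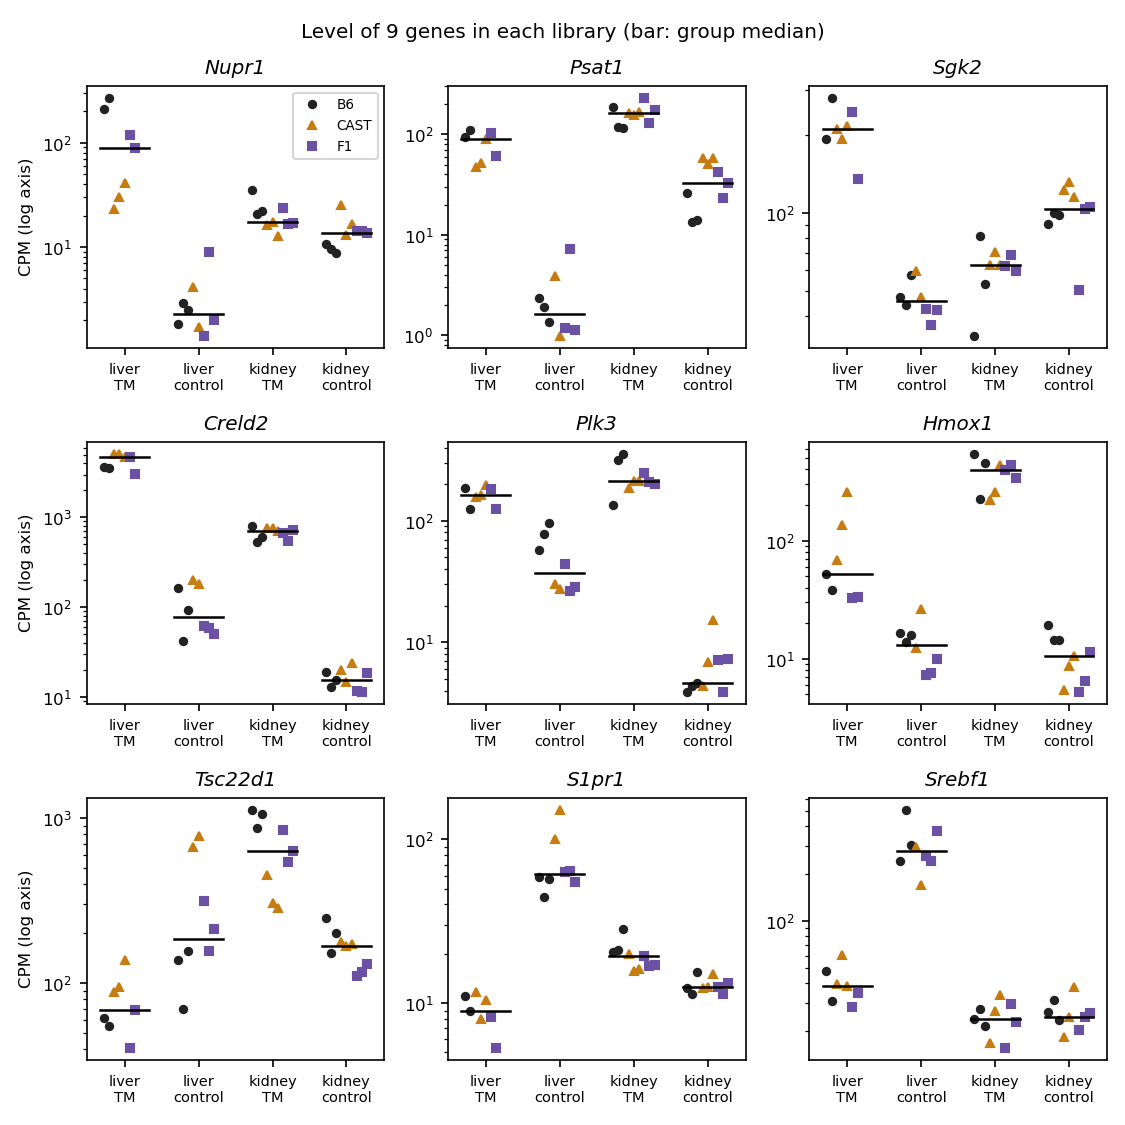
Level of 9 genes in each library, in CPM on a log axis, for liver TM, liver control, kidney TM and kidney control, with the median as a bar and B6 as circles, CAST as triangles and F1 as squares. Nupr1, Psat1 and Sgk2 responded more in liver, Creld2 alike in both tissues, Plk3 and Hmox1 more in kidney, Tsc22d1 and S1pr1 in opposite directions, and Srebf1 fell in liver alone.

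Genes of fatty acid oxidation fell in liver, whereas the share that fell in kidney was near that of all genes. Of 33 genes tested (36 listed) of fatty acid oxidation and ketogenesis, 32 (97.0%) fell in liver and 3 (9.09%) fell in kidney. Of all genes, 20.5% fell in liver and 6.87% in kidney. A tissue difference was called for 29 of the list (87.9%), all of them higher in kidney, against 14.4% of all genes. The medians of the list were -1.13 in liver and -0.12 in kidney. The count of 29 was 18 with B6 and CAST alone and 15 with the receptor covariate, and the median difference of -1.05 ran from -1.2 to -0.64. Hepatocyte markers were lower in TM livers, and among proximal tubule markers Kap was lower in TM kidneys, as given above, and their part in these values was not tested. Acsl1, which activates long-chain fatty acids, was at 207, 429 and 635 CPM in TM livers against 938, 1320 and 2020 CPM in control livers, and at 129, 180 and 441 CPM in TM kidneys against 104, 173 and 399 CPM in control kidneys. Acsl1 fell in liver without overlap (-1.83 ± 0.25) with 0.18 ± 0.22 in kidney, a difference of -2.01 ± 0.33 (limma adjusted p = 4.56e-05). Cpt1a, the carnitine transferase that admits fatty acids to mitochondria, fell in liver (-1.26 ± 0.25) and rose just past the threshold in kidney (0.59 ± 0.22), with TM and control samples overlapping in both tissues. Cyp4a10, an omega-hydroxylase, fell in liver (-2.6 ± 0.33) with -0.06 ± 0.30 in kidney.

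Fatty acid and triglyceride synthesis showed the same order. Of 26 genes, 19 (73.1%) fell in liver and 3 (11.5%) in kidney, against 20.5% and 6.87% of all genes. None had a response higher in liver against 15 (57.7%) higher in kidney (0 to 2 and 11 to 18 over the alternatives). The shares of all genes were 5.46% and 14.4%. Srebf1, the transcription factor that drives lipogenesis, was at 28.4, 38.8 and 60.3 CPM in TM livers against 170, 278 and 510 CPM in control livers, and at 15.5, 23.9 and 33.8 CPM in TM kidneys against 18.2, 24.6 and 37.9 CPM in control kidneys. Srebf1 fell in liver without overlap (-2.85 ± 0.20), with 0.03 ± 0.18 in kidney and a difference of -2.88 ± 0.27 (limma adjusted p = 8.49e-09). Acacb, the mitochondrial acetyl-CoA carboxylase, fell in liver (-2.28 ± 0.23) with 0.14 ± 0.21 in kidney. Elovl2, which elongates polyunsaturated fatty acids, fell in liver (-1.47 ± 0.21) and rose in kidney (1.08 ± 0.18). In sterol synthesis 15 of 27 genes (55.6%) fell in liver and 7 (25.9%) in kidney, against 20.5% and 6.87% of all genes. Rises numbered 4 (14.8%) in liver and 7 (25.9%) in kidney, against 18.9% and 15.1% of all genes. A response higher in kidney was called for 13 genes (48.1%), against 14.4% of all genes. That count was 8 with B6 and CAST alone or without CAST liver control 3, and 7 without F1 liver TM 2, without the receptor-rich libraries or with the receptor covariate. Msmo1, a demethylase of sterol synthesis, was at 45.9, 79.2 and 130 CPM in TM livers against 51.8, 396 and 559 CPM in control livers, and at 10.3, 27.7 and 78.8 CPM in TM kidneys against 6.86, 12.1 and 27.3 CPM in control kidneys. Msmo1 fell in liver (-1.76 ± 0.29) and rose in kidney (1.19 ± 0.26), and in each tissue the TM and control samples overlapped.

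**Figure D5:**
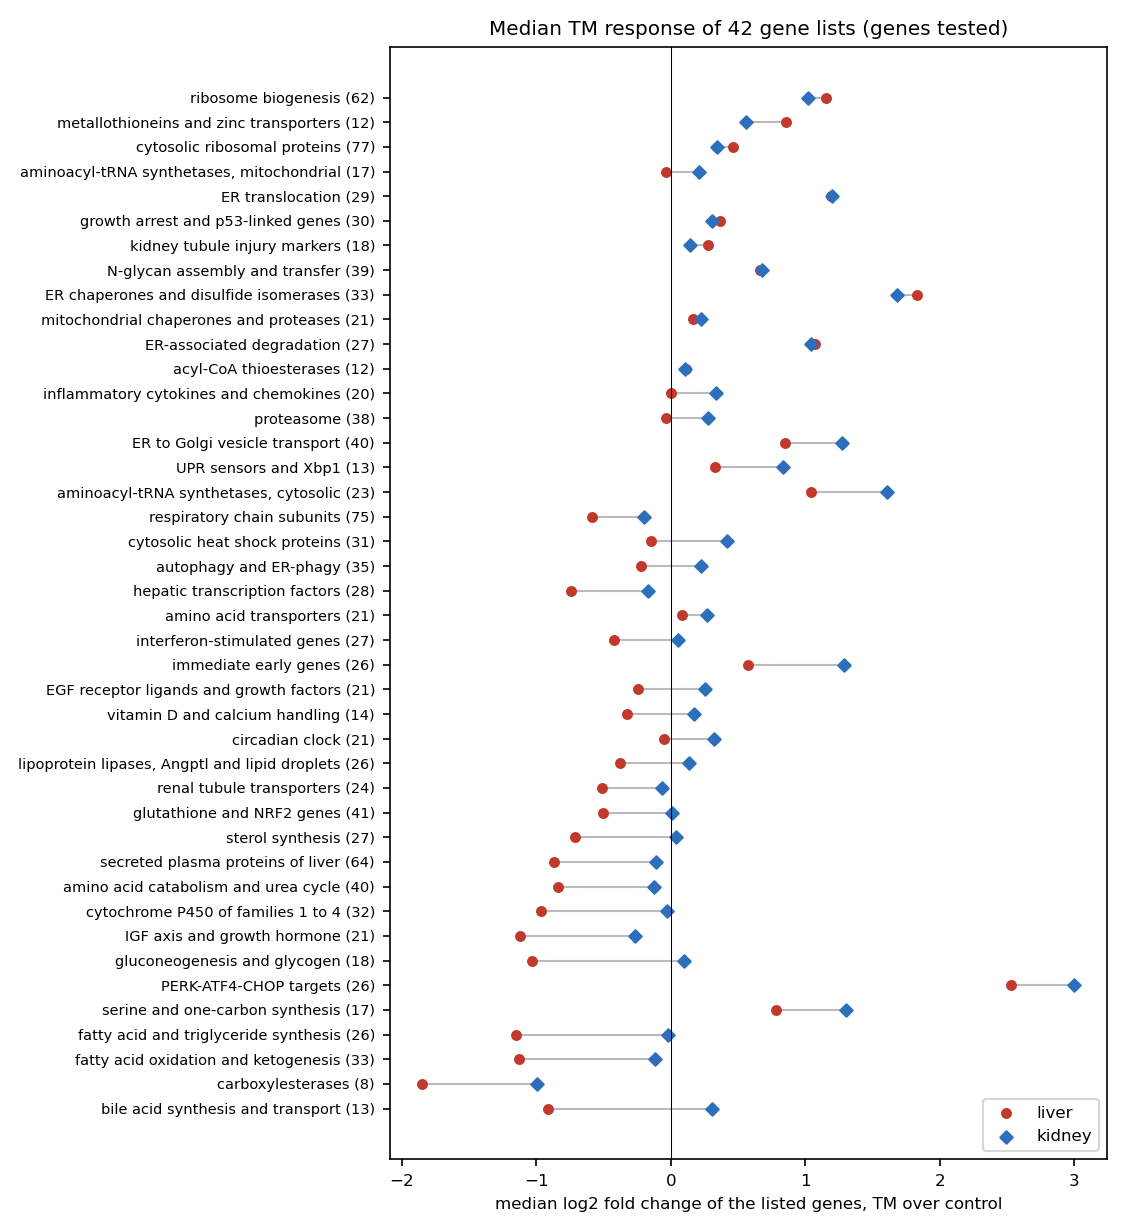
Median log2 fold change of TM over control in liver (red) and kidney (blue) for each of 42 gene lists. The ER lists and ribosome biogenesis lie above 0 in both tissues, the PERK, ATF4 and CHOP list lies further right in kidney (2.53 in liver and 3.00 in kidney), and fatty acid oxidation (-1.13 in liver and -0.12 in kidney) and bile acid genes (-0.92 in liver and 0.30 in kidney) lie left of 0 in liver.

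Of 13 genes tested (22 listed) of bile acid synthesis and transport, 10 (76.9%) fell in liver and none rose, against 20.5% and 18.9% of all genes. In kidney none fell and 4 (30.8%) rose, against 6.87% and 15.1% of all genes. A response higher in kidney was called for 10 (76.9%, 7 to 10 over the alternatives), against 14.4% of all genes. Slc10a1, the carrier that takes bile acids up into hepatocytes, was at 57.0, 131 and 184 CPM in TM livers against 479, 606 and 903 CPM in control livers, and at 2.61, 5.33 and 8.48 CPM in TM kidneys against 2.54, 4.93 and 6.62 CPM in control kidneys. It fell in liver without overlap, and the kidney level was low in both groups. Akr1d1, the 5-beta-reductase of bile acid synthesis, was at 20, 49.8 and 60.3 CPM in TM livers against 148, 214 and 358 CPM in control livers, and at 47.3, 93.0 and 155 CPM in TM kidneys against 33.1, 58.8 and 96.9 CPM in control kidneys. It fell in liver (-2.49 ± 0.18) and rose in kidney (0.71 ± 0.16), with a difference of -3.19 ± 0.24 (limma adjusted p = 1.61e-10) that was close to this value in each genotype, at -3.21 in B6, -3.16 in CAST and -3.22 in F1. Nr1h4, the bile acid receptor FXR, fell in liver (-0.82 ± 0.15) with 0.58 ± 0.13 in kidney, and its difference of -1.40 ± 0.20 was called.

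In gluconeogenesis and glycogen metabolism 12 of 18 genes tested (22 listed) fell in liver (66.7%) and 3 in kidney (16.7%). Of all genes, 20.5% fell in liver and 6.87% in kidney. In the list 9 (50%) had a response higher in kidney (6 to 10 over the alternatives), against 14.4% of all genes. Pck1, the rate-limiting enzyme of glucose synthesis from lactate and amino acids, was at 57.2, 152 and 717 CPM in TM livers against 2110, 3200 and 4780 CPM in control livers, and at 453, 1230 and 2200 CPM in TM kidneys against 1160, 1780 and 4120 CPM in control kidneys. Pck1 fell in liver without overlap (-4.20 ± 0.34), with -0.59 ± 0.31 in kidney, which was not called. The difference of -3.61 ± 0.46 was -2.54 with B6 and CAST alone, and that of F1 was -5.74. Of 40 genes tested (50 listed) of amino acid breakdown and the urea cycle, 30 (75%) fell in liver and 2 (5%) in kidney. A response higher in kidney was found in 22 (55.0%), against 7 with B6 and CAST alone and 9 with the receptor covariate. Oat, the ornithine aminotransferase, fell in liver (-1.55 ± 0.21) and rose in kidney (0.69 ± 0.19). Cytochrome P450 genes of families 1 to 4 oxidize drugs, steroids and fatty acids. Of 32 tested (55 listed), 22 (68.8%) fell in liver and 2 (6.25%) in kidney. A response higher in kidney was called for 17 (53.1%), against 10 with B6 and CAST alone or with the covariate. Among 64 secreted plasma proteins tested (84 listed), 46 (71.9%) fell in liver and 13 (20.3%) in kidney. A response higher in kidney was called for 23 (35.9%), against 13 with B6 and CAST alone and 8 with the covariate. Kidney levels of such genes can be low. Among hepatocyte markers that code for plasma proteins, TM kidney medians were 0.583 (Apoa1), 0.901 (Fgb), 3.76 (Alb), 5.48 (Ttr), 22.2 (Serpina1a) and 177 CPM (Apob). Of 75 respiratory chain subunits, 38 (50.7%) fell in liver and 2 (2.67%) in kidney. The number higher in kidney, 11, ran from 0 with the covariate to 18 without B6 liver TM 1 or without F1 liver control 2, was 17 without B6 liver control 2, 7 without F1 liver TM 2 and 3 with B6 and CAST alone, so that no order of the tissues is read from it.

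Transcription factors of hepatic genes followed in part. Of 28 tested (35 listed), 16 (57.1%) fell in liver and 7 (25%) in kidney, against 20.5% and 6.87% of all genes. A response higher in liver was called for 1 (3.57%) and higher in kidney for 9 (32.1%), against 5.46% and 14.4% of all genes. The counts were 1 and 7 to 11 over the alternatives. Cebpa was at 71.4, 102 and 227 CPM in TM livers against 311, 429 and 464 CPM in control livers, and at 11.8, 17.8 and 28.0 CPM in TM kidneys against 11.6, 21.1 and 41.7 CPM in control kidneys. It fell in liver without overlap (-2 ± 0.2), with -0.15 ± 0.17 in kidney and a difference of -1.85 ± 0.26 (limma adjusted p = 4.95e-06). Hlf, a factor of circadian output, fell in both tissues and further in liver, by 2.93 against 1.09 on the log2 scale in kidney. Hnf4a, which is expressed in hepatocytes and proximal tubule, had -0.42 ± 0.22 in liver and rose in kidney (0.80 ± 0.20).

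Calls of opposite sign in the tissues were made for 90 genes (0.612%). Of these 63 fell in liver and rose in kidney. Tsc22d1, a leucine zipper regulator induced by growth factors of the TGF-beta family, was at 40.4, 69.0 and 138 CPM in TM livers against 69.6, 185 and 773 CPM in control livers, and at 284, 635 and 1120 CPM in TM kidneys against 111, 168 and 247 CPM in control kidneys. The livers overlapped over the pooled genotypes, and the kidneys did not. The log2 fold changes were -1.91 ± 0.20 and 2.06 ± 0.18, and the difference of -3.98 ± 0.27 (limma adjusted p = 2.04e-11) was -3.41 in B6, -3.80 in CAST and -4.72 in F1.
S1pr1, a receptor for sphingosine-1-phosphate, was at 5.31, 8.99 and 11.7 CPM in TM livers against 44.6, 61.1 and 151 CPM in control livers, and at 15.6, 19.3 and 28.4 CPM in TM kidneys against 11.3, 12.6 and 15.5 CPM in control kidneys. Neither pair overlapped, and the difference was -3.74 ± 0.20 (limma adjusted p = 1.86e-13). S1pr1 is expressed in endothelium, whose summed markers had lower medians with TM in both tissues, as given above, and their part in this value was not tested.
Alas1, the rate-limiting enzyme of heme synthesis, was at 67.7, 130 and 178 CPM in TM livers against 408, 547 and 1500 CPM in control livers, and at 86.6, 151 and 281 CPM in TM kidneys against 45.0, 92.6 and 161 CPM in control kidneys. It fell in liver without overlap and rose in kidney with overlap, a difference of -3.24 ± 0.29 (limma adjusted p = 3.31e-09).

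Egfr, the epidermal growth factor receptor, was at 268, 352 and 410 CPM in TM livers against 440, 1180 and 1520 CPM in control livers, and at 165, 222 and 355 CPM in TM kidneys against 41.9, 84.2 and 105 CPM in control kidneys. The groups did not overlap in either tissue, with a difference of -3.08 ± 0.31 (limma adjusted p = 2.21e-08). An antisense gene overlaps Egfr, and the sources used here do not state whether the counting used strand, so that reads of the pair cannot be told apart. Of 21 EGF receptor ligands and growth factors tested (27 listed), 1 (4.76%) had a response higher in liver and 8 (38.1%) higher in kidney. The shares of all genes were 5.46% and 14.4%, and the counts ran from 1 to 2 and from 5 to 10 over the alternatives. The response of betacellulin (Btc), a ligand of EGFR, was higher in liver. Btc was at 23.8, 55.4 and 98.6 CPM in TM livers against 2.90, 5.18 and 8.67 CPM in control livers, and at 5.24, 10.7 and 19.9 CPM in TM kidneys against 4.46, 7.20 and 11.4 CPM in control kidneys. It rose in liver (3.11 ± 0.18) with 0.48 ± 0.16 in kidney, a difference of 2.63 ± 0.25 (limma adjusted p = 8.04e-09).

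The other 27 genes of opposite calls rose in liver and fell in kidney. Sgk2, a kinase related to the regulator of sodium transport SGK1, was at 135, 212 and 279 CPM in TM livers against 37.0, 45.6 and 59.4 CPM in control livers, and at 33.4, 62.8 and 81.2 CPM in TM kidneys against 50.5, 104 and 132 CPM in control kidneys. It rose in liver without overlap (2.14 ± 0.19) and fell in kidney close to the threshold (-0.59 ± 0.17), a difference of 2.74 ± 0.26 (limma adjusted p = 8.04e-09). Tsku, a secreted leucine-rich protein of liver, rose in liver (2.04 ± 0.24) and fell in kidney (-0.72 ± 0.22). Odc1, the rate-limiting enzyme of polyamine synthesis, was at 71.9, 87.7 and 301 CPM in TM livers against 24.7, 51.1 and 154 CPM in control livers, and at 71.3, 157 and 719 CPM in TM kidneys against 140, 447 and 1380 CPM in control kidneys. Groups overlapped in both tissues over the pooled genotypes, and the difference of 2.06 ± 0.38 was 2.67 in B6, 2.05 in CAST and 1.44 in F1.

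Further genes of a response higher in liver belonged to no single list. Id3, an inhibitor of helix-loop-helix transcription factors, was at 238, 329 and 652 CPM in TM livers against 19.7, 56.8 and 77 CPM in control livers, and at 26.5, 31.7 and 48.0 CPM in TM kidneys against 17.8, 30.1 and 37.4 CPM in control kidneys. It rose in liver without overlap, and the difference was 2.51 ± 0.29 (limma adjusted p = 1.88e-07). Nde1, a partner of dynein at the centrosome, and Amigo3, a leucine-rich adhesion protein of the membrane, rose in both tissues and more in liver, by 2.62 ± 0.26 and 2.61 ± 0.27. Cidec, which enlarges lipid droplets, was at 40.6, 131 and 231 CPM in TM livers against 2.87, 8.86 and 26.5 CPM in control livers, and at 2.25, 14.5 and 29.4 CPM in TM kidneys against 3.60, 12.9 and 19.5 CPM in control kidneys. Cidec rose in liver alone, with a difference of 3.08 ± 0.59 (limma adjusted p = 0.000291) that was 3.85 with the receptor covariate. Cidec is also one of the 5 adipocyte markers listed here, and their summed level in liver, nearly all of it Cidec, was 46.2, 131 and 233 CPM with TM against 5.76, 11.5 and 27.3 CPM in controls. Of the other markers, the median was 0.242 CPM in TM livers against 0.355 CPM in control livers for Adipoq, 0.674 against 0.248 CPM for Plin1, 0.59 against 0.321 CPM for Lep and 0.421 against 0.169 CPM for Retn. Their highest levels were 3.06 CPM in TM livers (Plin1) and 9.34 CPM in control livers (Lep), and Adipoq was at 0 in 3 TM livers and 1 control liver. Their part in the value of Cidec was not tested.

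Ribosome biogenesis rose in both tissues. Of 62 genes, 53 (85.5%) rose in liver and 51 (82.3%) in kidney, against 18.9% and 15.1% of all genes, and none fell. A like response was found in 38 (61.3%), against 9% of all genes, and the medians were 1.15 and 1.02. A response higher in liver was called for 9 genes (14.5%) and higher in kidney for 1 (1.61%), against 5.46% and 14.4% of all genes. The 9 became 15 without the receptor-rich libraries and 19 with the receptor covariate, and the median difference of 0.18 ran from 0.13 to 0.46. Ddx52, an RNA helicase of ribosomal RNA processing, was at 138, 200 and 274 CPM in TM livers against 20.8, 29.5 and 36.2 CPM in control livers, and at 48.3, 64.1 and 76.2 CPM in TM kidneys against 26.4, 30.7 and 40.8 CPM in control kidneys. Control levels were alike in range in both tissues, and the rise was larger in liver by 1.70 ± 0.19 (limma adjusted p = 9.89e-08). Of 77 cytosolic ribosomal proteins, 22 (28.6%) rose in liver and 5 (6.49%) in kidney, against 18.9% and 15.1% of all genes. The kidney share was thus below that of all genes. None of these proteins had a called difference, against 25 higher in liver with the receptor covariate.

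A like fall in both tissues was found for 282 genes (1.92%). B4galt5, a galactosyltransferase of glycolipid synthesis in the Golgi, was at 7.64, 9.02 and 14.6 CPM in TM livers against 27.7, 39.2 and 51.4 CPM in control livers, and at 15.6, 18.6 and 19.9 CPM in TM kidneys against 42.1, 62.8 and 104 CPM in control kidneys. It fell without overlap in both, by 1.93 and 1.68 on the log2 scale, with a difference of -0.25 ± 0.21. Slc36a1, a lysosomal amino acid transporter, fell by 1.60 in liver and by 1.92 in kidney, and C1rl, a protease related to complement C1r, by 1.77 and 1.80.

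Whether the tissue difference depended on genotype was tested with limma's F-test of the genotype terms, and 2 genes (0.0136%) passed. At an unadjusted p below 0.05 there were 842. The count was 0 with the mouse as a replicate block, 25 with the number within each table as a block, 7 with edgeR and 95 without the receptor-rich libraries. It was also 0 without B6 liver TM 1 or without B6 liver control 1, 36 without B6 liver TM 3, 4 without CAST liver TM 1 or 3, 5 without F1 liver TM 1 or F1 liver control 2, and 1 without F1 liver control 3 or F1 kidney TM 1. Fam129b, a protein with a pleckstrin homology domain, had a smaller fall in B6 liver (-0.69) than in CAST (-3.45) and F1 (-3.07), with 0.02, 0.14 and 0.12 in the 3 kidneys. Its TM livers lay between 4.63 and 10.9 CPM in all genotypes, while control livers lay between 10.5 and 16.3 CPM in B6, 89.6 and 100 CPM in CAST and 40.6 and 49.9 CPM in F1. Ces1f, a carboxylesterase, fell in every liver (-2.98 in B6, -3.22 in CAST and -4.70 in F1) and in every kidney (-1.73, -2.32 and -0.94 in the same order), and its difference of -1.97 ± 0.20 was -1.08 with B6 and CAST alone. Ces1f has close paralogs with which it may share reads, and F1 reads had been aligned in another way than those of the parents.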

How the data were processed

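Values of 15 livers and 18 kidneys were used, which the authors had sequenced from stranded libraries depleted of ribosomal RNA. The authors used Bowtie2 2.2.9 for the parental strains, STAR 2.6 with a masked genome for F1, and SAMtools 1.12. The read counter and its use of strand are not stated in the sources used here. The study's methods state that samples which did not cluster by treatment were removed, so that separation of TM from control was in part selected. The deposited signal values are gene counts scaled by the authors with size factors from DESeq2 1.28.1, separately in each of 6 tables. A factor per library turned 100% of values into whole numbers (tolerance 0.01), and these recovered reads gave the depths and, with TMM scaling, the CPM levels.

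Log2(value + 1) was fitted with limma 3.58.1 (R 4.3.3, mean-variance trend) with 1 mean per genotype, tissue and treatment, 12 in all, leaving 21 residual degrees of freedom. A factor per table cancels in every contrast. Fold changes are on the log2(value + 1) scale and understate changes of low genes. Named genes were the 15 called genes with the largest difference each way and the 10 of opposite calls each way among genes with a table mean of at least 50 and the same sign in every genotype, up to 3 called members each way of each of 42 lists and the most abundant member, genes of a like response or of genotype dependence, genes of the paper's text and cell markers. Other list members and promoters were picked after their values were seen. A ranked list member is not reported here. The members, lists and alternatives were chosen with earlier results of these data known. In simulated counts 98 of 100 planted differences of 2 and 65 of 94 of 1 on the log2 scale were called, along with 5 of 13876 unchanged genes. These counts were drawn independently, without shared mice, paired replicate numbers or libraries rich in receptor reads. The simulation therefore cannot tell how many false calls such features add in the real data.

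Alternatives were pseudocounts of 0.5 and 5, other filters, TMM scaling, fold changes centered on their median, no trend, 1 TM effect per tissue, replicate blocks, B6 and CAST alone, edgeR 4.0.16 and DESeq2 1.42.0 on recovered reads, and leaving out each of 33 libraries, where a lone sample is assumed to vary like the other groups. Chosen after seeing the data were leaving out the 5 libraries above 400 CPM of receptor reads and that share as a covariate. The study gives 6 mice per genotype for 18 samples per tissue, which implies that liver and kidney share mice, but whether a replicate number marks a mouse is not given, so samples were taken as independent in the main values. In kidney TM and control samples of the same number deviated together in all 9 pairs (correlations of 0.133 to 0.663), so that there the number marked something shared. With the number within each table as a block, 6 named genes lost their call and 9 gained one. Values with this block are given for Hyou1 and Herpud1.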

Additional observations from a re-analysis of the deposited data

Results flagged for a closer look

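The test of the tissue difference itself passed for 802 genes with a response higher in liver and for 2118 genes with a response higher in kidney. The test of whether that difference depended on genotype passed for Fam129b and for Ces1f, each at an adjusted p of 0.02 by limma's F-test. The difference of Fam129b was -0.71 in B6, -3.59 in CAST and -3.19 in F1, and that of Ces1f was -1.25 in B6, -0.90 in CAST and -3.76 in F1.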

How the results depend on the processing

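Of the 2920 called differences, 99.4% were called with the same sign at a pseudocount of 0.5, 87.5% with TMM scaling, 86.6% with edgeR, 88.5% with DESeq2, 70.0% with B6 and CAST alone, 84.1% without the receptor-rich libraries and 64.3% with the receptor share as a covariate. Differences higher in liver numbered 1224 with edgeR, 1348 with DESeq2, 1377 without the receptor-rich libraries and 1650 with the covariate, and those higher in kidney 1406 with the covariate. Falls in kidney numbered 626 at a mean of at least 20, 1686 with edgeR and 1860 with DESeq2. Genes of genotype dependence numbered 4 at a pseudocount of 5, 7 with TMM scaling, 7 with edgeR, 95 without the receptor-rich libraries and 8 with the covariate. The cause of these shifts was not tested. Leaving out 1 library at a time gave 718 to 1012 genes higher in liver, 1710 to 2621 higher in kidney, 2473 to 3108 rises and 2726 to 3266 falls in liver, 2063 to 2303 rises and 955 to 1107 falls in kidney, 80 to 109 opposite calls, 1192 to 1341 like responses and 0 to 36 genes of genotype dependence. Of 186 named genes with a called difference, none changed sign. For 129 of them the call was never lost in the alternatives that tested the gene, which numbered at most 49. The call of Herpud1 (-0.61) was lost in 36 alternatives. It was lost also with the number within each table as a block (-0.56, limma adjusted p = 0.0693), which is 1 of these.

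With the mouse (treatment and number) as a replicate block, 660 genes were higher in liver, 1753 higher in kidney and 0 depended on genotype. With the number within each table as a replicate block the counts were 1033, 2425 and 25. The pairing held in kidney, whereas correlations of same-number samples ran from -0.191 to 0.442 in liver and from -0.334 to 0.39 between the tissues. The mouse block gave no counts for single tissues, edgeR none for like responses and DESeq2 none for genotype dependence.

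Depth limits low genes: the shallowest library held 3355262 reads, and groups of 2 or 3 samples limit single genotypes more than the pooled contrast. Replicates differed beyond sampling noise.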

Other observations

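The summed level of 4 pancreatic acinar markers (of 6 listed) reached 604 CPM in 1 control liver. Its median was 23.8 CPM over control livers, and it was at most 15.5 CPM in TM livers. Of 18 kidney tubule injury markers tested (24 listed), 6 (33.3%) rose in liver and 4 (22.2%) in kidney, against 18.9% and 15.1% of all genes, with medians of 0.28 and 0.14 on the log2 scale. A response higher in liver was found in 3 (16.7%) and higher in kidney in 4 (22.2%), against 5.46% and 14.4% of all genes. Of 27 interferon-stimulated genes tested (32 listed), 12 (44.4%) fell in liver and 1 (3.7%) in kidney, against 20.5% and 6.87% of all genes. Of the same 27, 1 (3.7%) had a response higher in liver and 10 (37%) higher in kidney (6 with the receptor covariate). All 8 carboxylesterases tested (16 listed) fell in liver and 6 (75%) fell in kidney, against 20.5% and 6.87% of all genes, with medians of -1.85 and -0.99. A response higher in kidney was called for 6 (75%, 4 to 7 over the alternatives), against 14.4% of all genes.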
